A study of Mus musculus with 4 samples.

Results

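Unknown Mesenchymal is a name in the class annotation that the authors deposited for single cells of mouse alveolospheres, organoid co-cultures of lung epithelium and fibroblasts. The cells described here are the 992 of 45936 deposited cells that carry it, and all 992 lay in deposited cluster 22. They came from 2 libraries with a knockdown of YAP and TAZ restricted to the PDGFRα-expressing fibroblasts (YAP/TAZ KD, 436 and 365 cells) and from 2 Control libraries (85 and 106 cells). In both groups wild-type alveolar type 2 (AT2) cells, selected by uptake of LysoTracker, grew together with PDGFRα-positive lung fibroblasts, which were wild type in Control. The labels describe the knockdown as specific to PDGFRα cells and do not give its construct here. All 4 libraries received 3 µg/ml doxycycline beginning on day 7 and were collected on day 14. The labels call the 2 libraries of a group biological replicates and place all 4 in 1 batch, but name no animal or culture for any of them. A p-value here therefore rests on library-to-library variation alone, and how much of that is technical is unknown.

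Lung fibroblasts build and remodel the alveolar matrix and supply the growth factors that hold AT2 cells as stem cells or let them differentiate. YAP and TAZ are co-activators that move into the nucleus when the Hippo kinases are inactive or the cell is under tension, and there act through TEAD factors on genes of matrix, adhesion and growth. Lipid-handling lung fibroblasts take up fatty acids with the help of lipoprotein lipase, and contractile myofibroblasts deposit elastin at the septal tips. The name Unknown Mesenchymal assigns the cells to neither kind.

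The cells carried the markers of mesenchyme. All 9 pan-mesenchymal markers were detected, with a summed level of 6771 and 8334 CPM, the UMI count scaled to a common library total, in the 2 YAP/TAZ KD libraries and 8130 and 10731 CPM in the 2 Control libraries. UMIs are the unique molecular tags by which each captured RNA is counted. The other mesenchymal cells of the same libraries held 10776 and 11073 CPM in YAP/TAZ KD and 11311 and 14497 CPM in Control, so the sum was lower in the class in every library. The class deposited as AT2, which is epithelial, held 4683 CPM of the same 9 markers over the 4 libraries, so their detection alone does not mark a cell as mesenchymal. Pdgfra, the receptor by which the fibroblasts had been selected, stood at 289.7 and 300.2 CPM in YAP/TAZ KD and at 425.3 and 256.0 CPM in Control, and in the other mesenchymal cells at 291.1 and 316.2 CPM in YAP/TAZ KD and 296.2 and 313.1 CPM in Control. The class was above the other cells in Control 1 and below them in the other libraries. Markers of blood, endothelial, lymphatic and fat cells were at or near the limit of detection. Ptprc of the leukocytes, Cdh5 of the endothelium, the 5 T and NK cell markers, and Adipoq, Plin1 and Lep of adipocytes had no count in any of the 992 cells. The 10 pericyte markers, of the vessel wall, summed to 423.6 and 479.9 CPM in YAP/TAZ KD and 524.2 and 567.9 CPM in Control. The other mesenchymal cells held less in every library, at 380.4 and 417.7 CPM in YAP/TAZ KD and 371.4 and 392.8 CPM in Control. In all 4 libraries 3 of the 10, Pdgfrb, Notch3 and Lamc3, were higher in the class and 0 lower. The 9 smooth muscle markers summed to 572 and 593 CPM in YAP/TAZ KD and to 613 and 611 CPM in Control. The other mesenchymal cells held 528 and 691 CPM in YAP/TAZ KD and 654 and 844 CPM in Control. Mylk was the largest part of the sum in the class, at 338.0 and 339.9 CPM in YAP/TAZ KD and 346.2 and 288.9 CPM in Control. In all 4 libraries 2 of the 9, Mylk and Smtn, were higher in the class and 5, Acta2 and Myh11 among them, were lower. The 7 mesothelial markers summed to 51.3 and 36.9 CPM in YAP/TAZ KD and 103.8 and 82.1 CPM in Control, below the other mesenchymal cells in every library (52.9 and 52.98 CPM in YAP/TAZ KD, 110.9 and 100.7 CPM in Control), with Upk3b and Muc16 at 0 and Krt19, which epithelium expresses too, making up most of the sum.

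Epithelial RNA was present in the class at levels that differed between libraries. The 10 AT2 markers, led by the surfactant gene Sftpc, summed to 3202 and 1485 CPM in YAP/TAZ KD and to 1286 and 1264 CPM in Control. The sums in the other mesenchymal cells were lower in each library, at 2407 and 1267 CPM in YAP/TAZ KD and 872 and 925 CPM in Control, while the class deposited as AT2 held 37160 CPM. The 6 airway secretory markers differed far more between libraries, at 8.56 and 302.5 CPM in YAP/TAZ KD and 2097 and 403.7 CPM in Control, and the other mesenchymal cells differed between libraries in the same way, at 27.5 and 288.4 CPM in YAP/TAZ KD and 1371 and 300.6 CPM in Control. Of the 45936 cells, 1073 barcodes occurred in more than 1 library. Such barcodes were carried by 51 of the 992 cells, and 1 barcode was shared between cells of the class from different libraries.

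Against the other mesenchymal cells the class was highest above them in Chodl, Mamdc2, Col25a1, Hdac9 and Col4a6. The classes were named from the expression of these same cells, so the levels that follow describe the class and were not tested. Of 6205 genes with at least 20 CPM in either the class or the other mesenchymal cells in every library, 66 were at least 2-fold higher in the class in all 4 libraries (1.06%) and 118 at least 2-fold lower (1.90%), on the scale of log2(CPM + 1). Chodl, which encodes the lectin-like membrane protein chondrolectin, led the list. It had 441.9 and 387.1 CPM in the class in YAP/TAZ KD and 657.7 and 587.6 CPM in Control, while the other mesenchymal cells had 45.6 and 37.2 CPM in YAP/TAZ KD and 43.8 and 54.5 CPM in Control. Every library thus showed a gap of at least 9.50-fold. After each cell had been thinned to 1000 UMIs, Chodl was seen in 30.5% and 23.4% of the class in YAP/TAZ KD and 40.0% and 36.8% in Control, and in 1.61% and 1.14% of the AT2 class in YAP/TAZ KD and 1.29% and 1.47% in Control. Without thinning, Chodl was seen in 49.1% and 50.3% of the class in YAP/TAZ KD and 62.4% and 55.7% in Control, at median depths of 2304 to 4250.5 UMIs. The unthinned share in the AT2 class was 6.87% and 4.89% in YAP/TAZ KD and 7.29% and 8.91% in Control, at median depths of 5734.5 to 6620.5 UMIs.

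Mamdc2, a secreted proteoglycan-type matrix protein and the next in the profile, reached 282.4 and 307.1 CPM in the class in YAP/TAZ KD and 825.8 and 413.6 CPM in Control, against 31.5 to 38.1 CPM in the other mesenchymal cells. Among collagens outside the fibrillar type, Col25a1, a transmembrane collagen, was at least 7.26-fold and Col4a6, a basement membrane chain, at least 6.73-fold higher in every library. Col4a5, the partner chain and neighbour of Col4a6, was chosen after its values were seen. It stood at 215.2 and 211.4 CPM in YAP/TAZ KD and 242.3 and 183.8 CPM in Control, against 50.5 to 62.4 CPM in the other mesenchymal cells. The muscarinic receptor Chrm3, the synaptic vesicle protein Sv2c and the heparan sulfate 6-O-sulfotransferase Hs6st3 were at least 5.47-fold, 4.41-fold and 4.36-fold higher. Other genes known from neurons did not share this direction: of 14 measured axon guidance and neuronal genes, 4 were higher and 9 lower in all 4 libraries, with a median log2 ratio of -0.85. The deacetylase gene Hdac9 was at least 7.23-fold and Mecom, which encodes a zinc-finger transcription factor, at least 3.38-fold higher.

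Lpl, lipoprotein lipase, had 2149 and 2306 CPM in the class in YAP/TAZ KD and 2215 and 2590 CPM in Control, against 385.2 to 581.9 CPM in the other mesenchymal cells. Cp, the copper-binding ferroxidase ceruloplasmin, was at 1746 and 1676 CPM in YAP/TAZ KD and 1815 and 2121 CPM in Control, and at 425.0 to 533.4 CPM in the other cells. Slc40a1, the iron exporter ferroportin, was at least 3.69-fold higher. The lipofibroblast marker sum was accordingly higher in the class, but it rested on Lpl. Plin2, the lipid droplet coat protein, stood at 129.0 and 131.4 CPM in YAP/TAZ KD and 168.1 and 105.0 CPM in Control, against 82.5 to 116.9 CPM in the other cells, and Pparg, Fabp4 and Fabp5 were not higher in all 4 libraries. The remaining genes of the leading 20 were Galnt17, Plekha6, Mannr, Tmtc1, Sema6a, P2rx7, Sesn3 and Limch1, at 3.01-fold (Limch1) to 4.42-fold (Galnt17) or more in every library. Of the leading 20, 18 were highest in the class among all 15 deposited classes and 19 among the 11 mesenchymal ones. The exception among the mesenchymal ones was Tmtc1, which was higher in the class named SMC at 40.7 CPM, against 32.5 CPM in Unknown Mesenchymal. Mecom was higher in the epithelial classes. The lead over the nearest class differed between genes. Over the 4 libraries summed, Chodl had 440.1 CPM in Unknown Mesenchymal and was next highest in Inflammatory Fibroblasts-1 at 110.3 CPM. Hs6st3, Slc40a1 and Plekha6 had 114.5, 173.3 and 92.8 CPM in Unknown Mesenchymal, against 89.7, 118.8 and 68.9 CPM in Wnt4+ Fibroblasts. Limch1 had 269.2 CPM, against 235.0 CPM in Myo1f+ Fibroblasts. Such genes did not set the class far apart from every other class.

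**Figure D1:**
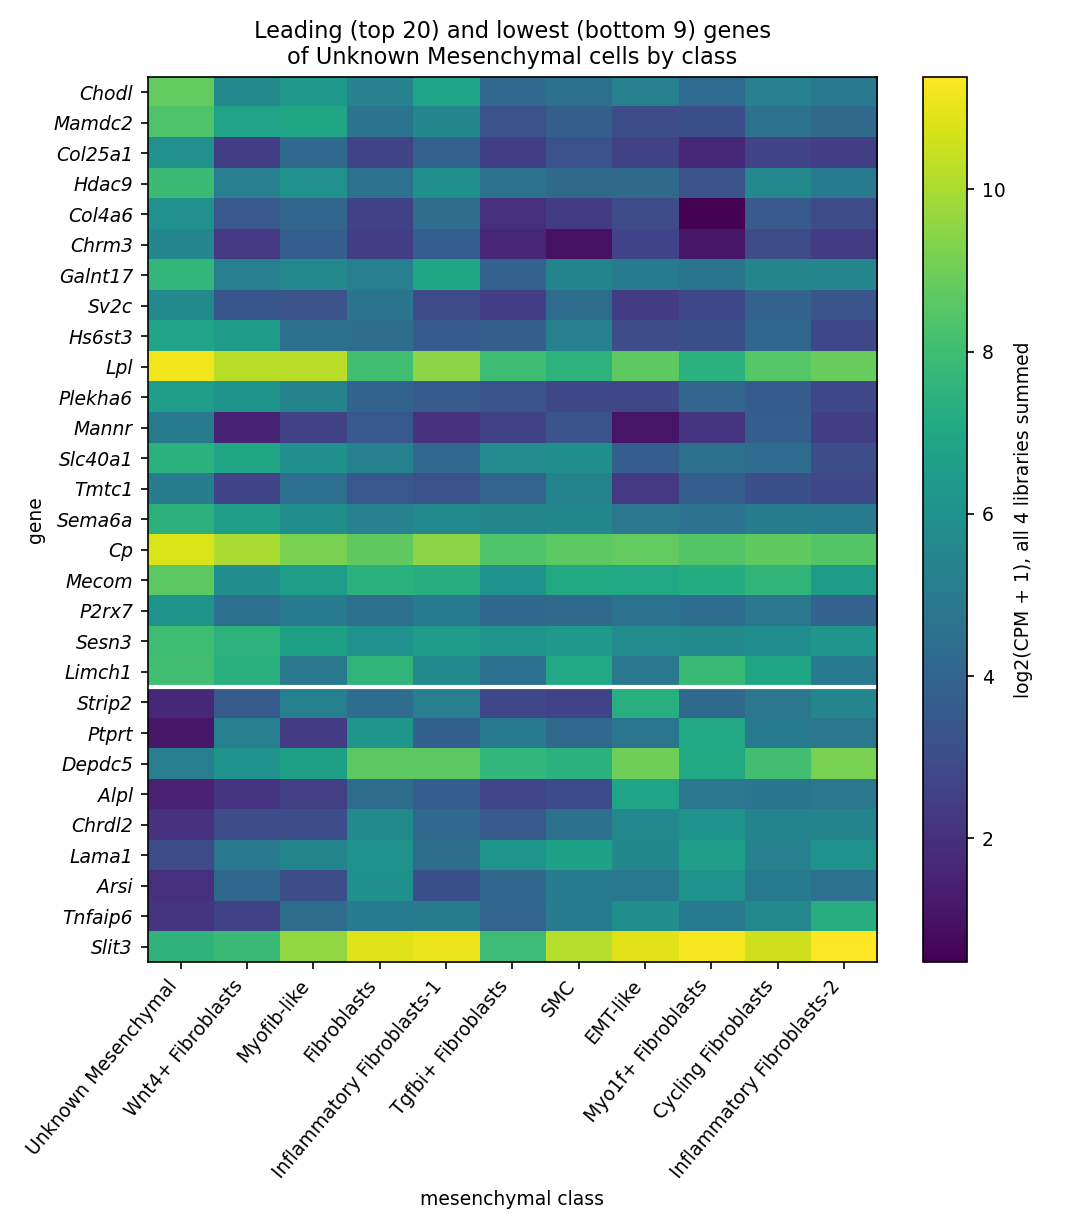
Level of the 20 leading and 9 of the 10 lowest genes of the class (rows, above and below the white line) in each of the 11 mesenchymal classes (columns, Unknown Mesenchymal at the left and the others in order of their likeness to it), as log2(CPM + 1) of the 4 libraries summed. Lpl and Cp are the brightest of the leading genes, at 2257 and 1748 CPM in Unknown Mesenchymal, and Lpl is next highest in Myofib-like and Wnt4+ Fibroblasts at 1188 and 1183 CPM.

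Some genes known from mineralised matrix, chosen after their values were seen and not from a fixed list, were higher in the class and others were not. Spp1, the secreted phosphoprotein osteopontin, had 40691 and 51500 CPM in the class in YAP/TAZ KD and 22228 and 38034 CPM in Control, while the other mesenchymal cells had 19505 and 24103 CPM in YAP/TAZ KD and 9702 and 14658 CPM in Control. Fam20c, the Golgi kinase that phosphorylates proteins of that family, had 283.6 and 353.7 CPM in YAP/TAZ KD and 202.7 and 384.1 CPM in Control, against 47.6 to 127.2 CPM in the other cells. Dmp1, a dentin and bone matrix protein, differed between the Control libraries of the class. It stood at 76.4 and 85.3 CPM in YAP/TAZ KD, at 170.7 CPM in Control 2 and at 0 CPM in Control 1, against 11.9 to 15.5 CPM in the other cells of the 4 libraries. Dspp, another dentin matrix gene, was at 25.1 and 27.1 CPM in YAP/TAZ KD and 54.4 and 65.7 CPM in Control, against 8.23 to 15.1 CPM in the other cells. Of the same gene family as Spp1, Ibsp had 4 counts in all and Mepe 0. Alpl, an alkaline phosphatase of mineralising tissue, went the other way and was at least 6.52-fold lower in the class in every library. The class had 2.44 and 1.15 CPM of Alpl in YAP/TAZ KD and 0 and 3.28 CPM in Control. The other cells had 26.9 to 38.3 CPM. Of the 9 chondrocyte and osteochondral markers, Runx2, a transcription factor of bone and cartilage, was higher in the class in all 4 libraries. It stood at 138.1 and 127.9 CPM in YAP/TAZ KD and 217.6 and 164.1 CPM in Control, while the other cells had 106.9 and 101.2 CPM in YAP/TAZ KD and 129.0 and 120.3 CPM in Control. Sox9, a transcription factor of cartilage, was above the other cells in YAP/TAZ KD 2 and Control 2 and below them in the other libraries, and Acan, Col2a1, Sp7 and Matn1 were at 0.

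The low side of the profile held matrix, inflammatory and growth factor genes. Strip2, Ptprt, Depdc5, Alpl, Chrdl2, Lama1, Arsi, Tnfaip6 and Slit3 were 9 of the 10 lowest, from at least 9.95-fold for Strip2 to at least 5.24-fold for Slit3, a secreted guidance ligand. Slit3 stood at 161.4 and 176.3 CPM in the class in YAP/TAZ KD and 306.6 and 367.6 CPM in Control, while the other mesenchymal cells had 920.0 and 988.5 CPM in YAP/TAZ KD and 2246 and 1931 CPM in Control. Of 17 measured inflammatory and chemokine genes, 14 were lower in all 4 libraries and 0 higher, with a median log2 ratio of -1.02 against 0.02 over the 6205 genes, of which 22.0% were higher and 20.3% lower in all 4. Cxcl1, a neutrophil-attracting chemokine, was at 26.3 and 33.4 CPM in YAP/TAZ KD and 24.7 and 19.7 CPM in Control, against 139.4 to 157.9 CPM in the other cells. Cxcl2, Cxcl5, Il6, Il11 and Ptgs2 were also at least 2-fold lower in every library.

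Among matrix glycoproteins 14 of 19 and among collagens 11 of 18 were lower in all 4 libraries. Tnc, the matricellular protein tenascin C, and the elastic fibre and cross-linking genes Fbln1, Fbln2, Loxl2 and Mfap5 were at least 2-fold lower, as were Col5a1, Col6a2, Col12a1 and Col14a1. Col13a1, another transmembrane collagen, was the 1 collagen on that list that was at least 2-fold higher. Among alveolar niche growth factors 14 of 21 were lower and 0 higher, with Igf1, Nrg1, Ereg, Il6 and Lif at least 2-fold lower. Igf1, insulin-like growth factor, stood at 145.5 and 119.8 CPM in YAP/TAZ KD and 227.5 and 223.2 CPM in Control, against 570.4 to 661.8 CPM in the other cells. Among the 13 immediate early and heat shock genes measured 11 were lower, and among 18 YAP/TAZ target genes 10 were lower and 2 higher. Lung mesenchyme transcription factors ran the other way, with 11 of 20 higher and 2 lower in all 4 libraries. Tbx4, Tbx2 and Tbx3, which pattern lung mesenchyme, had mean log2 ratios of 1.24, 1.17 and 0.89. The mitochondrially encoded genes were lower for 12 of 13, and the cells' median mitochondrial share was lower than in the other mesenchymal cells of each library.

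The class was closest to Wnt4+ Fibroblasts, with a Spearman correlation of 0.956 over 8726 genes, followed by Myofib-like at 0.938 and Fibroblasts at 0.931. These are descriptions across genes of cells that share libraries. Wnt4+ Fibroblasts had 1362 and 971 cells in YAP/TAZ KD but 7 and 32 in Control, so that pair was set side by side in the 2 YAP/TAZ KD libraries alone. There 80 of 6463 genes were at least 2-fold higher in Unknown Mesenchymal and 73 at least 2-fold lower. Tafa1, which encodes a secreted peptide of the nervous system, led the difference at 96.0 and 110.0 CPM, against 6.58 and 6.06 CPM in Wnt4+ Fibroblasts. Npnt, nephronectin, was among the lowest at a mean log2 ratio of -3.70. It is 1 of 11 alveolar fibroblast markers, which did not share a direction. Against all other mesenchymal cells, 4 of the 11 (Limch1, Tcf21, Gpc3 and Itga8) were higher in all 4 libraries and 3, Npnt among them, were lower. Against Myofib-like cells, in all 4 libraries, 57 of 6173 genes were at least 2-fold higher and 87 at least 2-fold lower. Ordered by the smallest ratio over the 4 libraries, Limch1, Col13a1 and Mannr led the higher side there, at log2 ratios of at least 3.22, 2.37 and 2.12, and Wt1, a transcription factor of mesothelium and some fibroblasts, led the lower side at -3.96 or lower. Against Fibroblasts the numbers were 84 and 137 of 6044 genes, led by Mamdc2 and Col4a6 and by Ptprt and Arsi.

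A second class column in the deposited annotation divided the same 992 cells under other names. It called 658 of them Myofib-like, 240 Fibroblasts and 71 Mmp9+ Fibroblasts, with 11 among Inflammatory fibroblasts-1, 8 among Cycling fibroblasts and the rest in other classes. It gave the name Unknown Mesenchymal to 0 of the 992 cells and to 1097 other cells, of which 315 belonged to Inflammatory Fibroblasts-1 and 278 to EMT-like in the annotation used here. The Myofib-like share of the class was 59.2% and 69.9% in YAP/TAZ KD and 71.8% and 79.2% in Control. The Mmp9+ Fibroblasts share was 10.8% and 6.58% in YAP/TAZ KD, and 0 of 85 and 0 of 106 cells in Control. Within the class, the cells with the second name Myofib-like were led by Dmp1 at 128.1 CPM, against 10.3 CPM in the rest of the class, and then by Col4a6, Fat3, Rnf34 and Chrm3. Those named Fibroblasts were led by Adm, Kif17, Dtna, Nfatc2 and Adam12, with Adm at 57.9 CPM, against 7.83 CPM in the rest. Those named Mmp9+ Fibroblasts were led by Pclo, Nnat, Tmem163, Tfap2a and Cck, with Pclo at 24.7 CPM, against 1.67 CPM in the rest. These leads come from the genes that defined the names and are a description.

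Unknown Mesenchymal cells made up a larger share of mesenchymal cells in the knockdown. They were 5.84% and 7.12% of the mesenchymal cells of the 2 YAP/TAZ KD libraries, with exact 95% binomial intervals of 5.31% to 6.39% and 6.43% to 7.86%. In the 2 Control libraries they were 0.706% (0.564% to 0.872%) and 0.923% (0.757% to 1.12%). The groups did not overlap, and the mean shares of 6.48% in YAP/TAZ KD and 0.815% in Control differed 7.95-fold. An exact permutation test, 2-sided, over the 4 libraries gave p = 0.333, the smallest value that 2 libraries against 2 allow. The intervals cover counting error only. Of the 20 genes that lead the class, 8 changed between YAP/TAZ KD and Control in the other mesenchymal cells, where 11.0% of 17518 genes did by edgeR's test. Plekha6, Slc40a1 and Sema6a rose there (4.61% of all genes rose), and Galnt17, Sv2c, Tmtc1, Mecom and Limch1 fell (6.35% of all genes fell). The other 12 did not pass there, Chodl, Mamdc2 and Lpl among them, with log2 fold changes of -0.20, 0.12 and 0.31.

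When the mesenchymal cells were clustered anew without the 1920 genes that changed in the other mesenchymal cells, 578 of the 992 cells (58.3%) fell into 1 new cluster of 835 cells. That cluster held 4.00% and 5.25% of the mesenchymal cells of the YAP/TAZ KD libraries and 0.855% and 1.43% of those of the Control libraries. Clustering with all genes put 590 of the 992 cells (59.5%) into 1 cluster, which held 3.67% and 4.76% of the mesenchymal cells in YAP/TAZ KD and 1.00% and 1.12% in Control. Both clusterings gave a smaller difference between groups than the deposited class, in the same direction. In each, the cluster followed was the one that held the most members, of whom 436 and 365 were YAP/TAZ KD cells and 85 and 106 Control cells. The 1920 genes were those called in the other mesenchymal cells, so other responses to the knockdown stayed in. Whether genes that respond to the knockdown produce the difference in share was therefore not tested. The cells of the class had other members as 50.2% of their 20 nearest neighbours, then Wnt4+ Fibroblasts (17.9%), Fibroblasts (17.3%) and Myofib-like (8.60%), while they were 2.75% of all mesenchymal cells; these neighbours come from the clustering without the 1920 genes.

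**Figure D2:**
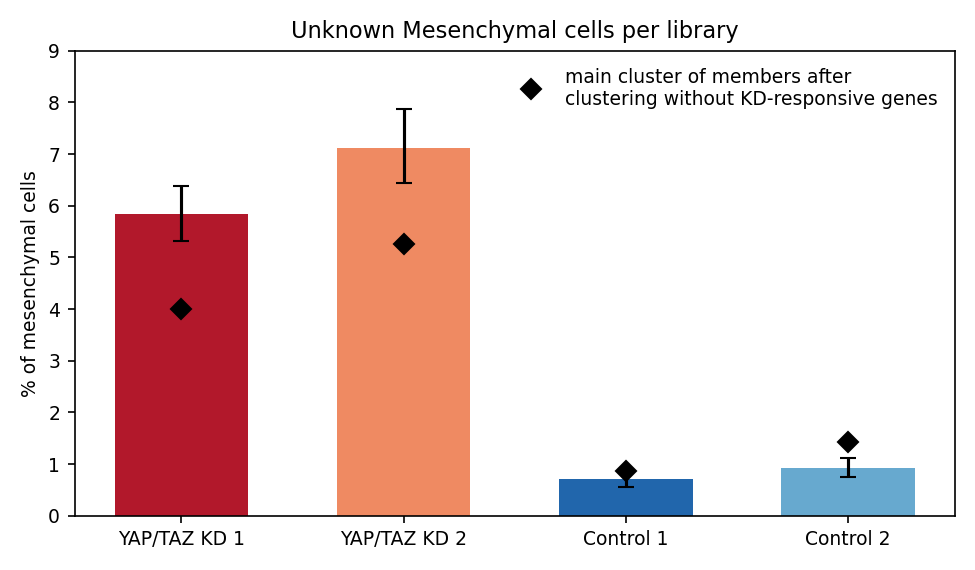
Percent of mesenchymal cells named Unknown Mesenchymal in each library (bars, with exact 95% binomial intervals for counting error) and percent in the main cluster of these cells after clustering without the genes that changed with the knockdown in the other mesenchymal cells (black diamonds). The YAP/TAZ KD bars reach 5.84% and 7.12% and the Control bars 0.706% and 0.923%.

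Depth was lower in Control, in this class as in the rest. The median cell of the class held 3228 and 4244 UMIs in YAP/TAZ KD and 2304 and 2359.5 UMIs in Control, while that of the other mesenchymal cells held 4789 and 5984 UMIs in YAP/TAZ KD and 3777 and 4051 UMIs in Control. The summed counts of the class were 1636024 and 1735768 UMIs in YAP/TAZ KD and 202221 and 304645 UMIs in Control, so the Control sums carry the larger counting error. The exact permutation test of the median UMI count, 2-sided over the 4 libraries, gave p = 0.333. The median mitochondrial share was 23.2% and 15.8% in YAP/TAZ KD and 17.0% and 17.2% in Control. The median ATAC doublet enrichment, the authors' score from the chromatin data of the same cells, was 0.564 and 1.0 in YAP/TAZ KD and 0.358 and 0.463 in Control, and in the other mesenchymal cells 0.618 and 1.09 in YAP/TAZ KD and 0.358 and 0.475 in Control. After thinning to 1000 UMIs, Mki67 or Top2a was seen in 2.98% and 1.37% of the class in YAP/TAZ KD and in 0% and 3.77% in Control, and without thinning in 8.49% and 6.59% in YAP/TAZ KD and in 2.35% and 5.66% in Control. In the other mesenchymal cells the thinned shares were 2.80% and 3.47% in YAP/TAZ KD and 6.34% and 6.46% in Control, and in the AT2 class, which holds dividing cells too, 4.32% and 3.58% in YAP/TAZ KD and 5.51% and 4.42% in Control. The share in the class was thus below that in the other mesenchymal cells in 3 libraries and above it in YAP/TAZ KD 1, where Wnt4+ Fibroblasts had 1.54% and Myofib-like cells 1.30%.

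Within the class, YAP/TAZ KD and Control were compared on counts summed per library with edgeR's quasi-likelihood test and Benjamini-Hochberg adjustment, at an adjusted p below 0.05. Of 8772 genes tested, 115 passed (1.31%), with 52 higher (0.593%) and 63 lower (0.718%) in YAP/TAZ KD. Leaving out a library moved the count, to 71 without YAP/TAZ KD 2 (43 higher, 28 lower), 96 without YAP/TAZ KD 1 (54 and 42) and 181 without Control 2 (93 and 88). With an offset for gene length the split was 68 higher and 50 lower. Of the knockdown targets, Yap1 stood at 41.4 and 44.6 normalised CPM in YAP/TAZ KD and 62.1 and 59.4 normalised CPM in Control. Its log2 fold change was -0.49 ± 0.30 (SE), which did not pass (adjusted p = 0.573), although the groups did not overlap. Wwtr1, which encodes TAZ, stood at 188.0 and 134.4 normalised CPM in YAP/TAZ KD and 224.5 and 201.4 normalised CPM in Control, with a log2 fold change of -0.40 ± 0.22 (adjusted p = 0.522). In the other mesenchymal cells Yap1 fell by 0.71 on the log2 scale (adjusted p = 0.00774), and the interaction test found no difference between the effects that passed (adjusted p = 0.95). Wnt4, a secreted Wnt ligand, stood at 57.2 and 82.6 normalised CPM in YAP/TAZ KD and 52.5 and 26.4 normalised CPM in Control, with a log2 fold change of 0.91 ± 0.36 (adjusted p = 0.308). In the other mesenchymal cells Wnt4 rose by 1.40 on the log2 scale (adjusted p = 0.000893).

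The largest rise among genes with counts in both Control libraries was that of Mmp9 (chromosome 2, 164940780 to 164955850, GRCm38), a gelatinase that degrades basement membrane collagen. Mmp9 had 364.1 and 379.2 normalised CPM in YAP/TAZ KD and 14.3 and 9.91 normalised CPM in Control, a log2 fold change of 4.97 ± 0.35 (adjusted p = 3.26e-08). The Control values rest on 3 and 3 counts, and the ratio of pooled counts per total was 29.6 with an exact counting interval of 13.6 to 80.9. Angpt2 (chromosome 8, 18690263 to 18741562), the ligand that counters angiopoietin 1 at the Tie2 receptor, had 163.0 and 267.7 normalised CPM in YAP/TAZ KD and 4.78 and 13.2 normalised CPM in Control (log2 fold change 4.45 ± 0.47, adjusted p = 1.10e-05). Its Control values rest on 1 and 4 counts, for a ratio of 20.8 with an interval of 8.87 to 64.3. Its counterpart Angpt1 (chromosome 15, 42424723 to 42676977) fell to 17.1 and 14.5 normalised CPM in YAP/TAZ KD, against 90.7 and 46.2 normalised CPM in Control (-2.04 ± 0.39, adjusted p = 0.00703; 0.111 without Control 1). The 2 angiopoietins moved in opposite directions. In each the groups did not overlap, which held for all 115 genes that passed and was a condition for naming a gene. Megf11 (chromosome 9, 64385626 to 64709205), a transmembrane protein of the EGF-repeat family, had 286.5 and 309.3 normalised CPM in YAP/TAZ KD and 23.9 and 19.8 normalised CPM in Control. Its log2 fold change of 3.78 ± 0.31 had an adjusted p of 3.22e-07, and its ratio from 5 and 6 Control counts was 13.0 with an interval of 7.22 to 26.1. Adgrg1, an adhesion G protein-coupled receptor, and Hspb1, a small heat shock protein, rose by 3.34 and 3.06 on the log2 scale. From 3 and 2 Control counts the ratio of Adgrg1 was 9.59 (4.07 to 29.7), and from 5 and 13 that of Hspb1 was 7.85 (4.94 to 13.3).

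Other leading rises were of genes with 0 to 2 Control counts in all, for which only a bound or a ratio with its interval is given. Pcp4, a small calmodulin-binding protein, had 70 and 70 counts in YAP/TAZ KD and 0 and 0 in Control, which makes it at least 7.02-fold higher when Control is set at the limit of 3 counts over the group. Pcdh15, a protocadherin of hair cells, had 30 and 67 counts in YAP/TAZ KD and 0 and 0 in Control, at least 4.86-fold. Adm, the vasoactive peptide adrenomedullin, had 26 and 58 counts in YAP/TAZ KD and 0 and 0 in Control, at least 4.21-fold, and its adjusted p of 0.0335 rose above the threshold when YAP/TAZ KD 1 or Control 2 was left out. Dapk3, a death-associated kinase, had 48 and 72 counts in YAP/TAZ KD and 0 and 1 in Control, a ratio of 18.04 with an exact counting interval of 3.18 to 718. Plch2, a phospholipase C, had 78 and 66 counts in YAP/TAZ KD and 1 and 1 in Control, a ratio of 10.8 with an interval of 2.94 to 90.2, and did not pass without YAP/TAZ KD 1.

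The largest falls held Cbr2, Reg3g and Bpifa1, genes of airway secretory epithelium, and Pglyrp1, a peptidoglycan recognition protein. Pglyrp1, Cbr2, Reg3g and Bpifa1 fell by 3.26, 3.20, 2.88 and 2.69 on the log2 scale. Pglyrp1 had like levels in the YAP/TAZ KD libraries, at 4.60 and 5.43 normalised CPM, against 76.4 and 29.7 normalised CPM in Control. Reg3g, an antimicrobial lectin, had 0.657 and 161.0 normalised CPM in YAP/TAZ KD and 907.4 and 333.5 normalised CPM in Control, and Bpifa1, a secreted airway protein, had 0.657 and 30.7 normalised CPM in YAP/TAZ KD and 105.1 and 105.7 normalised CPM in Control. As a ratio, the YAP/TAZ KD libraries differed from each other more than the Control libraries did in both genes, while in Reg3g the absolute difference was larger between the Control libraries. In the other mesenchymal cells Reg3g stood at 1.07 and 138.5 CPM in YAP/TAZ KD and 540.6 and 297.4 CPM in Control, and so differed between libraries in the same way as the airway marker sums given above. The part of free or co-captured epithelial RNA in these 4 falls was not tested. Without YAP/TAZ KD 2, the log2 fold changes of Reg3g, Bpifa1 and Cbr2 were -9.47, -6.94 and -6.63. Reg3g and Bpifa1 lost their calls with upper-quartile scaling, and Pglyrp1 when either YAP/TAZ KD library was left out.

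Among the other large falls, Ifitm1, an interferon-inducible membrane protein, had 47.3 and 54.9 normalised CPM in YAP/TAZ KD and 181.5 and 201.4 normalised CPM in Control (log2 fold change -1.91 ± 0.22, adjusted p = 3.52e-05). Ppargc1a, the co-activator that drives mitochondrial biogenesis, had 26.3 and 25.3 normalised CPM in YAP/TAZ KD and 124.2 and 72.6 normalised CPM in Control (-1.87 ± 0.31, adjusted p = 0.00195). Sorcs1, a sorting receptor, had 7.23 and 5.43 normalised CPM in YAP/TAZ KD and 14.3 and 49.5 normalised CPM in Control, and Cdc14a, a phosphatase, had 13.1 and 10.2 normalised CPM in YAP/TAZ KD and 38.2 and 52.8 normalised CPM in Control. Both lost the call when either YAP/TAZ KD library or Control 2 was left out. Ldb2, a LIM-domain binding protein, rested on 2 and 6 counts in YAP/TAZ KD and 3 and 7 in Control, and its adjusted p of 0.0472 rose above the threshold without Control 1.

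**Figure D3:**
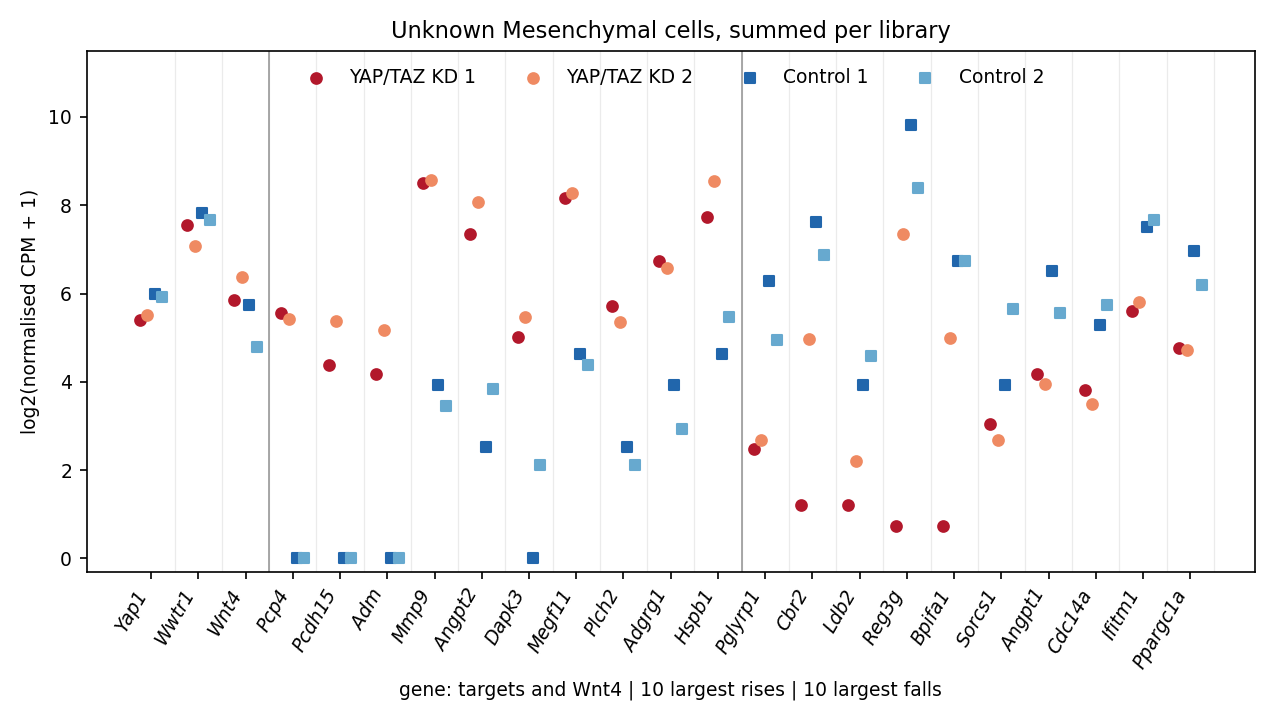
Level of the knockdown targets and Wnt4, the 10 largest rises and the 10 largest falls in Unknown Mesenchymal cells, as log2(normalised CPM + 1) of the counts summed per library (circles, YAP/TAZ KD 1 and 2; squares, Control 1 and 2). Pcp4, Pcdh15 and Adm sit at 0 in both Control libraries, and YAP/TAZ KD 1 lies far below YAP/TAZ KD 2 in Cbr2, Reg3g and Bpifa1.

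Several of the genes that lead the class were lower in the knockdown. Of the 20, 5 fell (Col25a1, Col4a6, Chrm3, Sv2c and Hs6st3) and 0 rose, against 0.718% and 0.593% of all genes tested. Sv2c fell by 1.78 and Hs6st3 by 1.20 on the log2 scale (adjusted p = 0.00132 and 0.00370 by edgeR). The median log2 fold change of the 20 was -0.63 in the class and -0.28 in the other mesenchymal cells, beside 0.01 for all 8772 genes in the class. Lpl and Cp had log2 fold changes of -0.01 and -0.10 in the class. The leading 20 were chosen for their ratio to the other mesenchymal cells in all 4 libraries, Control included.

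Over all 8772 genes, 1.31% passed and 11.48% had an unadjusted p below 0.05, so a count of 0 in a list of 20 or fewer genes is near the background and is no result about that list. Of the 19 measured YAP/TAZ targets 0 passed, and their median log2 fold change was 0.09. Ccn1 and Ccn2, secreted matricellular proteins and common readouts of YAP, had log2 fold changes of 0.17 ± 0.23 and 0.69 ± 0.26. Of 18 genes of the Hippo pathway 0 passed, of 12 Wnt ligands and modulators 0, of 6 Wnt target genes 0, of 11 contractile genes 0 and of 17 collagens 0. At an unadjusted p below 0.05, edgeR gave 3 of the 19 YAP/TAZ targets, 4 of the 12 Wnt ligands and modulators, 1 of the 6 Wnt targets, 2 of the 17 collagens, and 0 of the 18 Hippo and 11 contractile genes, beside the 11.48% of all genes. Acta2, smooth muscle actin, had 105 and 126 normalised CPM in YAP/TAZ KD and 143 and 162 normalised CPM in Control (log2 fold change -0.41 ± 0.22).

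Among 23 alveolar niche growth factors, Fst and Angpt2 rose and Angpt1 fell. Fst, follistatin, which binds activins, had 233.3 and 289.4 normalised CPM in YAP/TAZ KD and 57.3 and 79.2 normalised CPM in Control, a log2 fold change of 1.90 ± 0.26 (adjusted p = 0.000226). Among 17 inflammatory and chemokine genes, Vcam1, an adhesion molecule for leukocytes, rose by 1.29 and Saa3, an acute-phase protein, fell by 1.73 on the log2 scale. Saa3 had 141.3 and 106.7 normalised CPM in YAP/TAZ KD and 200.6 and 594.4 normalised CPM in Control, and its adjusted p of 0.00233 became 0.258 without Control 2, at a log2 fold change of -0.68. Among 27 lung mesenchyme transcription factors Cebpb, a C/EBP factor, rose by 2.39 on the log2 scale, with 349.6 and 647.5 normalised CPM in YAP/TAZ KD and 124.2 and 72.6 normalised CPM in Control. Among 14 axon guidance and neuronal genes, Slit3, Sema3d and Unc5c fell, by 0.91, 0.99 and 1.12 on the log2 scale, and 0 rose. Each of these 3 lost its call without YAP/TAZ KD 1, Slit3 and Sema3d also without YAP/TAZ KD 2, and Slit3 also without Control 2.

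Of 19 matrix glycoproteins Tnc rose, of 18 matrix proteases and inhibitors Mmp9, of 15 p53 and senescence genes Igfbp7, and of 16 immediate early and heat shock genes Fosb and Dusp1. Tnc had 585.6 and 599.2 normalised CPM in YAP/TAZ KD and 238.8 and 310.4 normalised CPM in Control, a log2 fold change of 1.09 ± 0.21 (adjusted p = 0.00700). Fosb and Dusp1 lost their calls without YAP/TAZ KD 1 or Control 2, and Igfbp7 without YAP/TAZ KD 2 or Control 1. Beside the 1.31% of all genes, 0 passed among 6 interferon response genes, 12 S phase and 4 G2/M genes, 13 hypoxia and glycolysis genes, 9 stress response genes, 24 ribosomal protein genes, 13 mitochondrially encoded genes, 4 nuclear retained RNAs, 16 lipid and sterol synthesis genes and 19 growth factor receptors. Over these lists 0 to 5 members each had an unadjusted p below 0.05 with edgeR, beside 11.48% of all genes. Of 10 fibroblast rises listed from earlier results of these same libraries 9 rose, and of 4 listed falls 2 fell, which is no independent evidence of direction.

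The other mesenchymal cells of the same libraries, 35124 in number, gave the following log2 fold changes for the same genes, and the libraries are shared between both comparisons. Mmp9 had 4.97 in the class and 4.99 in the other cells, Megf11 3.78 and 2.84, Angpt2 4.45 and 3.50, Adgrg1 3.34 and 4.69, and Hspb1 3.06 and 2.20. Among the falls, Angpt1 had -2.04 in the class and -1.35 in the other cells, Ifitm1 -1.91 and -1.12, and Ppargc1a -1.87 and -0.41. The interaction test passed for Ppargc1a among these 8 genes (adjusted p = 0.00185). Across the 8772 genes tested in the class, the log2 fold change correlated with gene length at a Spearman rho of -0.25 in the class and -0.46 in the other mesenchymal cells, a description across genes that share libraries.

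The difference between the knockdown's effect in the class and that in the other mesenchymal cells was tested by an interaction term. Of 15693 genes, 123 passed (0.784%), with the effect higher in the class for 74 (0.472%) and lower for 49 (0.312%). The median of all interaction values was 0.13 on the log2 scale. Of the 74, 25 fell in the other mesenchymal cells and 1 rose, and of the 49, 19 rose there and 1 fell. Of all 17518 genes tested in those cells, 4.61% rose and 6.35% fell. The interaction value is the effect in the class minus that in the other cells. Choosing genes by its sign favours this split, which is therefore no separate result. The count depended on the method more than that of the class alone: DESeq2 called 9 and 23, and limma voom called 0 on the same sums, with 2041 genes at an unadjusted p below 0.05 (1050 with edgeR). Upper-quartile scaling gave 50 higher and 57 lower, and an offset for gene length 17 higher and 386 lower. Leaving out YAP/TAZ KD 1, YAP/TAZ KD 2, Control 1 or Control 2 left 59, 60, 80 and 75 genes in turn.

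Several matrix and matricellular genes were on the higher side. Col8a1 (chromosome 16), a short-chain collagen, had 18.1 and 22.5 normalised CPM in the class in YAP/TAZ KD and 13.0 and 6.18 normalised CPM in Control, from 28 and 38 counts in YAP/TAZ KD and 3 and 2 in Control. In the other mesenchymal cells it had 17.1 and 23.3 normalised CPM in YAP/TAZ KD and 79.1 and 103.3 normalised CPM in Control. The groups did not overlap in the other cells, where Col8a1 fell by 2.17 on the log2 scale, while in the class its log2 fold change was 1.07 ± 0.62 (adjusted p = 0.538), and the effects differed by 3.37 ± 0.51 (adjusted p = 5.26e-08). Tnc differed by 1.49 ± 0.16 on the log2 scale: it rose in the class and had a log2 fold change of -0.31 in the other cells (adjusted p = 0.257). Ltbp2, a latent TGF-β binding protein, had 80.8 and 91.6 normalised CPM in the class in YAP/TAZ KD and 65.0 and 58.7 in Control, while the other cells had 83.0 and 86.4 in YAP/TAZ KD and 143.3 and 171.2 in Control. In YAP/TAZ KD the class and the other cells thus had like levels of Col8a1 and Ltbp2, and in Control the class had less. Across the matrix lists, the effect was higher in the class for Col8a1, Tnc, Thbs1, Thbs2, Ltbp2, Mmp19 and Timp3, among others, and lower for Col18a1, Eln, Mfap4, Mmp11 and Serpine2. When the class was set against Wnt4+ Fibroblasts alone, with their 7 and 32 Control cells, Thbs1, Thbs2, Col18a1, Eln and Mfap4 changed sign. Of these, Col18a1, Mfap4 and Thbs1 passed edgeR's test in the opposite direction. Their log2 values were 1.55, 1.74 and -1.03 (adjusted p = 6.14e-05, 0.000147 and 0.0183). Against the same class Col8a1, Ltbp2, Mmp11, Mmp19 and Timp3 did not pass. Of the matrix genes named here, Tnc and Col8a1 passed whichever library was left out. Ltbp2 and Col18a1 lost the call without Control 2, and Thbs2 lost it whichever library was left out. Thbs1, Mmp19, Timp3, Eln, Mfap4, Mmp11 and Serpine2 each lost it without some libraries, and Mmp11 changed sign without Control 1.

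The other highest interaction values rested on genes without Control counts in the class. Adm, Prmt7 and Nfatc2 had 26 and 58, 25 and 22, and 15 and 20 counts in YAP/TAZ KD and 0 in both Control libraries, at least 4.21-fold, 2.36-fold and 1.75-fold higher. In the other mesenchymal cells their log2 fold changes were -0.41, -0.15 and -0.46 and did not pass. Rfx2, a ciliary transcription factor, had 51 and 34 counts in YAP/TAZ KD and 2 and 0 in Control, a ratio of 6.39 with a counting interval of 1.72 to 53.6. Without Control 2, none of the 4 genes passed, and Prmt7 did not pass whichever library was left out.

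**Figure D4:**
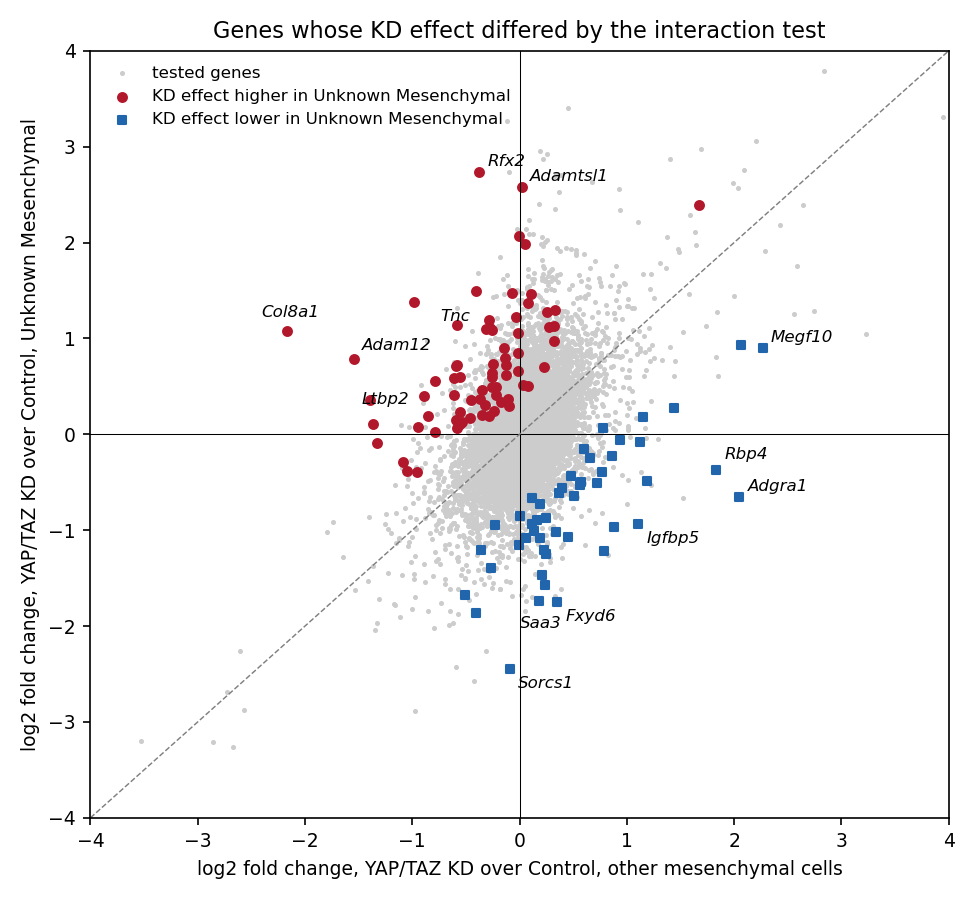
Log2 fold change of YAP/TAZ KD over Control in Unknown Mesenchymal cells (vertical) and in the other mesenchymal cells (horizontal) for 8772 genes (grey), with genes that passed the interaction test coloured by direction; the dashed line marks equal effects, and 12 genes, 2 of them coloured, lie outside the axes of -4 to 4. Col8a1 lies far to the left, at -2.17 in the other cells and 1.07 in the class, and Adgra1 and Rbp4 lie far to the right, at 2.05 and 1.83 in the other cells.

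On the lower side, Adgra1, an adhesion receptor, had 16.2 and 22.5 normalised CPM in the class in YAP/TAZ KD and 21.7 and 34.0 in Control, while the other cells had 9.39 and 9.48 in YAP/TAZ KD and 2.41 and 2.16 in Control. The other cells rose by 2.05 on the log2 scale and the class had a log2 fold change of -0.65 (adjusted p = 0.631), a difference of -2.62 ± 0.58. Fxyd6, a regulator of the sodium pump, fell in the class by 1.75 (adjusted p = 0.00625) and had a log2 fold change of 0.35 in the other cells. Rbp4, the retinol carrier, and Sorcs1 had differences of -2.06 and -2.31. Igfbp5, an insulin-like growth factor binding protein chosen after its values were seen, fell by 0.94 in the class and rose by 1.10 in the other cells on the log2 scale. Fxyd6 passed whichever library was left out, while Adgra1, Rbp4 and Sorcs1 each lost the call without some libraries, Adgra1 without YAP/TAZ KD 1 or Control 2, Rbp4 without YAP/TAZ KD 1 or Control 1, and Sorcs1 without YAP/TAZ KD 2 or Control 2.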

How the data were processed

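RNA libraries of the 10x Genomics multiome kit were deposited as 1 matrix of UMI counts per gene and cell, with a table of cells. Per the submitters' processing notes the genome was GRCm38 (mm10), while no aligner or counter is named in those notes or in the labels. The cells had been filtered before deposit: they held at least 533 UMIs and 402 genes and at most 35.0 percent mitochondrial UMIs, a percent given in the authors' table. Per the file headers that table also holds the ribosomal fraction of UMIs, the ATAC doublet enrichment and TSS enrichment as ratios to a background, embedding coordinates as a score, and 2 columns of cell classes, of which the column with 15 classes was used. Of its columns, 46 were not used. No cell was removed here and no doublet caller was run; 19 of the 992 cells had no ATAC values.

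Raw counts of the class and of all other mesenchymal cells were summed per library. edgeR 4.0.16 (quasi-likelihood test, TMM scaling, filterByExpr, Benjamini-Hochberg over all genes tested, threshold 0.05) in R 4.3.3 compared YAP/TAZ KD with Control within the class, and tested the interaction over 8 sums with the library as a block. A normalised CPM is a count scaled by the TMM library size, separately in each fit. The script was tested on simulated data. Class profiles use log2(CPM + 1) and carry no test. Shares and cell medians were compared by exact permutation of the 4 libraries. Clustering anew used 2000 genes, 30 components, 20 neighbours and Leiden resolution 1.5 (leidenalg 0.10.2). Genes were named by rule: the 20 highest and 10 lowest of the profile, the 10 largest rises and falls, and the 5 highest and 5 lowest interaction values among genes that passed with groups apart and at least 10 normalised CPM in the higher group, besides Yap1, Wwtr1, Wnt4 and list members that passed. Unnamed gene models were counted only, and 3 genes that the rule or a list would name are not reported here. The members and gene lists were chosen with earlier results of these data known. Alternatives were upper-quartile scaling, DESeq2 1.42.0, limma voom 3.58.1, other filters, thinning, a gene length offset, the replicate number as a block and leaving out each library.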

Additional observations from a re-analysis of the deposited data

Results flagged for a closer look

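For 9 genes named by rule the effect of YAP/TAZ KD in Unknown Mesenchymal cells differed from that in the other mesenchymal cells by edgeR's interaction test. Adm had an adjusted p of 1.27e-05, with 26 and 58 counts in the class in YAP/TAZ KD and 0 in both Control libraries, and a log2 fold change of -0.41 in the other cells. Prmt7 and Nfatc2, also without Control counts in the class, had adjusted p-values of 0.0236 and 0.0315, and Rfx2, with 2 and 0 Control counts, 0.00227. Col8a1 had an adjusted p of 5.26e-08, from a log2 fold change of 1.07 in the class and -2.17 in the other cells. On the lower side, Fxyd6 had an adjusted p of 9.04e-07 (log2 fold change -1.75 in the class, 0.35 in the other cells), Adgra1 0.00169 (-0.65 and 2.05), Sorcs1 0.00228 (-2.45 and -0.09) and Rbp4 0.0217 (-0.37 and 1.83). All rest on 2 libraries against 2 and on Control sums of 202221 and 304645 UMIs in the class. With sums thinned to the smallest library, Col8a1 and Fxyd6 passed and the other 7 did not. With limma voom 0 of the 9 passed. Against Wnt4+ Fibroblasts alone, Adm, Prmt7, Col8a1, Adgra1, Sorcs1 and Fxyd6 did not pass, Nfatc2 was not among the genes tested, and the values of Rfx2 and Rbp4 changed sign.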

How the results depend on the processing

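In Unknown Mesenchymal cells 115 genes were called (52 higher, 63 lower). DESeq2 called 45 (22, 23), sums thinned to the smallest library 47 (26, 21), and no low count filter 196 (119 higher). Leaving out 1 library gave 71 to 181 called, 43 to 93 higher and 28 to 88 lower, with a lone sample assumed to vary like the other group. The labels do not say whether same-numbered libraries are paired. Deviations of same-numbered libraries from their group means correlated at 0.0825 over 8772 genes. With 2 libraries per group this cannot decide whether they share an animal or culture. The fit with the replicate block called 297 (139 higher, 158 lower), all 115 among them. Mmp9, Angpt2, Megf11, Adgrg1, Hspb1, Ifitm1, Tnc, Fst, Vcam1 and Cebpb passed under all 15 alternatives. Cbr2 failed with DESeq2 alone, and Ppargc1a with thinned sums alone. Pcp4, Pcdh15 and Dapk3 were among the genes tested in only 14, 12 and 13 of the 15, and of those failed with DESeq2 alone. Of calls in the interaction (123; 74 higher, 49 lower), DESeq2 made 32 (9, 23), limma voom 0 (0, 0), thinned sums 33 (9, 24), and cells of at most 25% mitochondrial UMIs 67 (29 higher). Without a filter 45 were higher, with at least 10 CPM 41, and the gene length offset gave 403 (17, 386). Against Wnt4+ Fibroblasts alone it was 33 (13, 20), and against Myofib-like cells, added after seeing the data, 74 were lower. Leaving out 1 library gave 59 to 80 called, 24 to 43 higher and 27 to 43 lower. The share difference of 5.67 points was 4.21 over all cells, 6.90 in cells of at most 25% mitochondrial UMIs and 3.48 after clustering anew, and 5.02 to 6.31 without 1 library.

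Log2 interaction values changed sign against Wnt4+ Fibroblasts alone for Rfx2 (-4.05), Rbp4 (0.34), F3 (-0.86), Col18a1 (1.55), Thbs1 (-1.03), Thbs2 (-6.81), Eln (0.10), Mfap4 (1.74), Igf1 (0.35), Ccl11 (0.15), Dusp1 (-0.46), mt-Nd3 (-0.61), mt-Atp6 (-0.24), mt-Cytb (-0.19) and Slit2 (-0.37). They did so against Myofib-like for Eln (0.37), without Control 1 for Mmp11 (0.32, the range without 1 library being -1.62 to 0.32), and with the gene length offset for mt-Nd3 (-1.44), mt-Atp6 (-1.11) and mt-Cytb (-0.78). Against Wnt4+ Fibroblasts alone, Col18a1, Mfap4 and Thbs1 passed edgeR's test in the opposite direction (adjusted p = 6.14e-05, 0.000147 and 0.0183). With the gene length offset, mt-Nd3 and mt-Atp6 did so too (adjusted p = 1.70e-10 and 0.00523). The cause was not tested.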
